A study of Mus musculus with 4 samples.

Results

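The 41 genes described here encode hnRNP proteins, SR proteins, the SR-related TRA2 and SRRM proteins, and the CLK and SRPK kinases that phosphorylate SR proteins. They were taken by gene symbol from a table of 54532 mouse genes. Each symbol matched 1 identifier, and all 41 genes had enough counts to be tested, among 16368 tested genes. By class there were 21 hnRNP genes, 10 SR protein genes, 4 TRA2 and SRRM genes and 6 kinase genes. The RNA came from mouse astrocytes, a type of glia that clears transmitter and buffers ions at synapses, and was read by mRNA sequencing. The cells were treated with an siRNA against Ptbp1 (small interfering RNA, a short duplex that directs degradation of a matching transcript; 2 libraries) or with NC siRNA (2 libraries), which the deposited column names call the control. The labels give no strain, age, dose or time of treatment, and nothing on whether replicate libraries are separate cultures. The p-values therefore reflect only the spread among these 4 libraries, which could be technical.

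hnRNP and SR proteins bind nascent transcripts and act, often in opposite directions, on the choice of splice sites. SR proteins carry a domain rich in arginine and serine repeats, recruit the spliceosome to exons, and depend on phosphorylation by SRPK kinases in the cytoplasm and CLK kinases in the nucleus. Many hnRNP proteins block nearby splice sites or loop out exons. Ptbp1, the gene targeted here, encodes the polypyrimidine tract binding protein, itself known as hnRNP I, which represses neuronal exons in cells that are not neurons.

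The libraries held 14557844 and 14981622 gene counts in the Ptbp1 siRNA group, against 16009248 and 15002578 in the NC siRNA group. Levels are given as CPM, counts scaled to a common library size. Ptbp1 fell to 202.8 and 195.5 CPM in the Ptbp1 siRNA libraries, against 300.4 and 295.3 CPM in the NC siRNA libraries. The log2 fold change was -0.58 (SE 0.063; Benjamini-Hochberg adjusted p = 0.00127 in edgeR's quasi-likelihood test), so 33.1% less transcript was counted. In bulk RNA, fewer cells with a transcript and less of it per cell cannot be told apart. The 9 astrocyte markers (Aqp4, Gfap, Slc1a3 and others) were all tested and summed to 2298 and 2026 CPM in Ptbp1 siRNA and 2337 and 2203 CPM in NC siRNA. Markers of other cells were present too, with a fibroblast sum of 2384 and 1992 CPM in Ptbp1 siRNA against 2675 and 2420 CPM in NC siRNA, and a microglia and macrophage sum of 732 and 703 CPM in Ptbp1 siRNA against 737 and 740 CPM in NC siRNA. The neuron list summed to 246 to 259 CPM in Ptbp1 siRNA and 243 to 255 CPM in NC siRNA, and the oligodendrocyte lineage list to 91.7 to 109.9 CPM in Ptbp1 siRNA and 102 to 115 CPM in NC siRNA. The ependymal list summed to 336 to 351 CPM in Ptbp1 siRNA and 357 to 374 CPM in NC siRNA, and the endothelial list to 32.4 to 39.3 CPM in Ptbp1 siRNA and 34.0 to 38.7 CPM in NC siRNA. Genes of cycling cells summed to 452 to 502 CPM in Ptbp1 siRNA and 462 to 498 CPM in NC siRNA. The endothelial marker Cldn5 had 0 counts in every library. A choroid plexus sum of 54.1 and 68.9 CPM in Ptbp1 siRNA stood against 70.1 and 423 CPM in NC siRNA, so NC siRNA 2 stood apart there. No marker of the 9 lists passed the test, and their part in the values below was not tested.

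None of the 41 splicing factor genes passed the test at an adjusted p under 0.05, against a background of 4 of 16368 genes (0.0244%), Ptbp1 among these. At an unadjusted p under 0.05 in the same edgeR fit there were again 0 members, against 3.98% of all tested genes. The log2 fold changes of the members, Ptbp1 siRNA over NC siRNA, ran from -0.11 for Syncrip to 0.08 for Srsf2, which are folds of 0.927 and 1.06. There were 19 values above 0 (46.3%, against 50.2% of all tested genes) and 22 below, with a median of -0.0056 for the members and 0.00036 for all tested genes. Every member had an edgeR adjusted p of 1.00, and the authors' deposited table also gives 1.00 for each.

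The intervals describe, gene by gene, how large a change these libraries leave room for. They draw more on a spread pooled over genes (14.0 prior degrees of freedom) than on a gene's own libraries (2 residual). Like the p-values, they reflect only the spread among these 4 libraries, which could be technical. For 39 of the 41 genes the 95% interval of the fold change lay within 1.2-fold in either direction, which 34.4% of all tested genes met. The widest reach downward was that of Srsf4, whose interval went down to 0.821-fold, and the widest reach upward was that of Srsf2, at 1.16-fold. Srsf4 and Clk2 were the members outside the 1.2-fold limit. The members are well counted, with 475 to 12094 raw counts per library, and their median SE was 0.067 on the log2 scale against 0.12 for all tested genes.

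**Figure D1:**
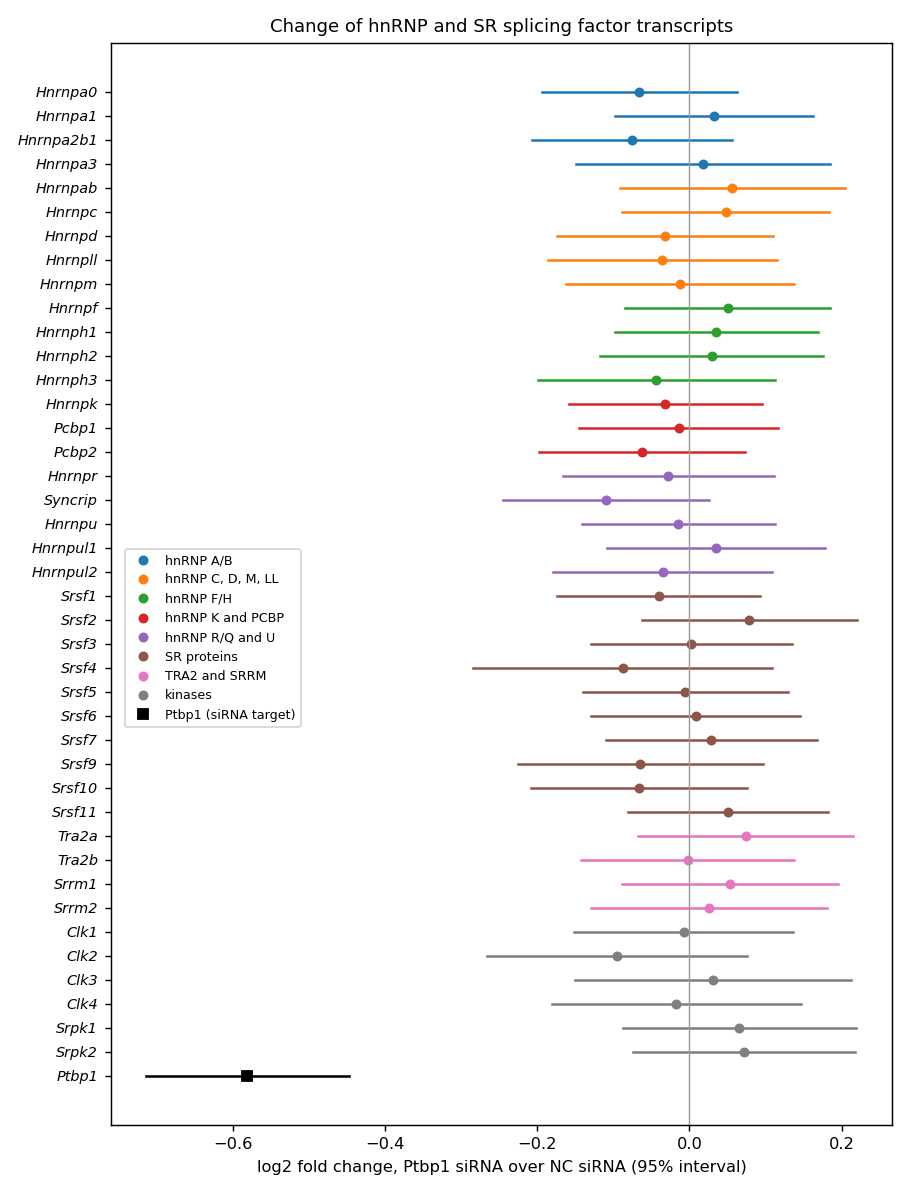
Log2 fold change of each of the 41 genes, Ptbp1 siRNA over NC siRNA, from edgeR, with bars for the 95% interval, grouped by class. The intervals of all 41 genes include 0, and their values run from -0.11 for Syncrip to 0.08 for Srsf2. Ptbp1, the siRNA target, is drawn below them at -0.58 (95% interval -0.71 to -0.45).

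In 17 of the 41 genes (41.5%) the groups did not overlap, against 31.5% of all tested genes. In 7 members (17.1%) both Ptbp1 siRNA libraries were above both NC siRNA libraries, against a background of 15.6%, and in 10 members (24.4%) both were below, against 15.9%. The 7 were Hnrnpa1, Srsf2, Srsf7, Srsf11, Tra2a, Srpk1 and Srpk2. The 10 were Hnrnpa0, Hnrnpa2b1, Hnrnpk, Hnrnpr, Syncrip, Pcbp2, Srsf1, Srsf4, Srsf9 and Clk2. None of the 17 passed the test.

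Transcript levels within the set spanned a wide range. On the deposited FPKM scale, which divides by gene length, the means over the 4 libraries ran from 6.19 for Hnrnpr to 180 (179.8) for Pcbp1, with a median of 29.2 FPKM. The median of 13920 tested protein-coding genes was 6.67 FPKM, and the median member stood above 86.4% of them. Pcbp1, a KH-domain protein that binds C-rich RNA, averaged 179 ± 1.56 FPKM in Ptbp1 siRNA and 181 ± 5.39 FPKM in NC siRNA (SD, n = 2 each). Hnrnpa0, which binds AU-rich elements, followed at 166 ± 2.01 FPKM in Ptbp1 siRNA and 173 ± 3.48 FPKM in NC siRNA. These are the 2 members with a single exon. Hnrnpab averaged 128.9 FPKM and Hnrnpk 106 FPKM over the 4 libraries. At the low end Clk3, Srpk2 and Srpk1 stood at 6.69, 6.66 and 6.59 FPKM, which are closer together than the replicate SD of Clk3 (0.49 in Ptbp1 siRNA and 0.56 in NC siRNA).

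The order depends on the length used. The deposited lengths of most members exceed their longest coding transcript, by 3.81 times for Hnrnpa2b1 and 4.53 times for Clk1. With the length of the longest coding transcript, an alternative added after the data were seen, Hnrnpa2b1 moved from rank 7 to rank 1 (85.7 to 326 on the FPKM scale). Clk1 moved from rank 31 to rank 16 on this scale, and Hnrnpr stayed last at 6.40. The longest coding transcript of Hnrnpr has 21452 bases, against a median of 2543 over its coding transcripts. Its last place therefore also depends on the length used. Differences between the groups are not touched by this choice.

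**Figure D2:**
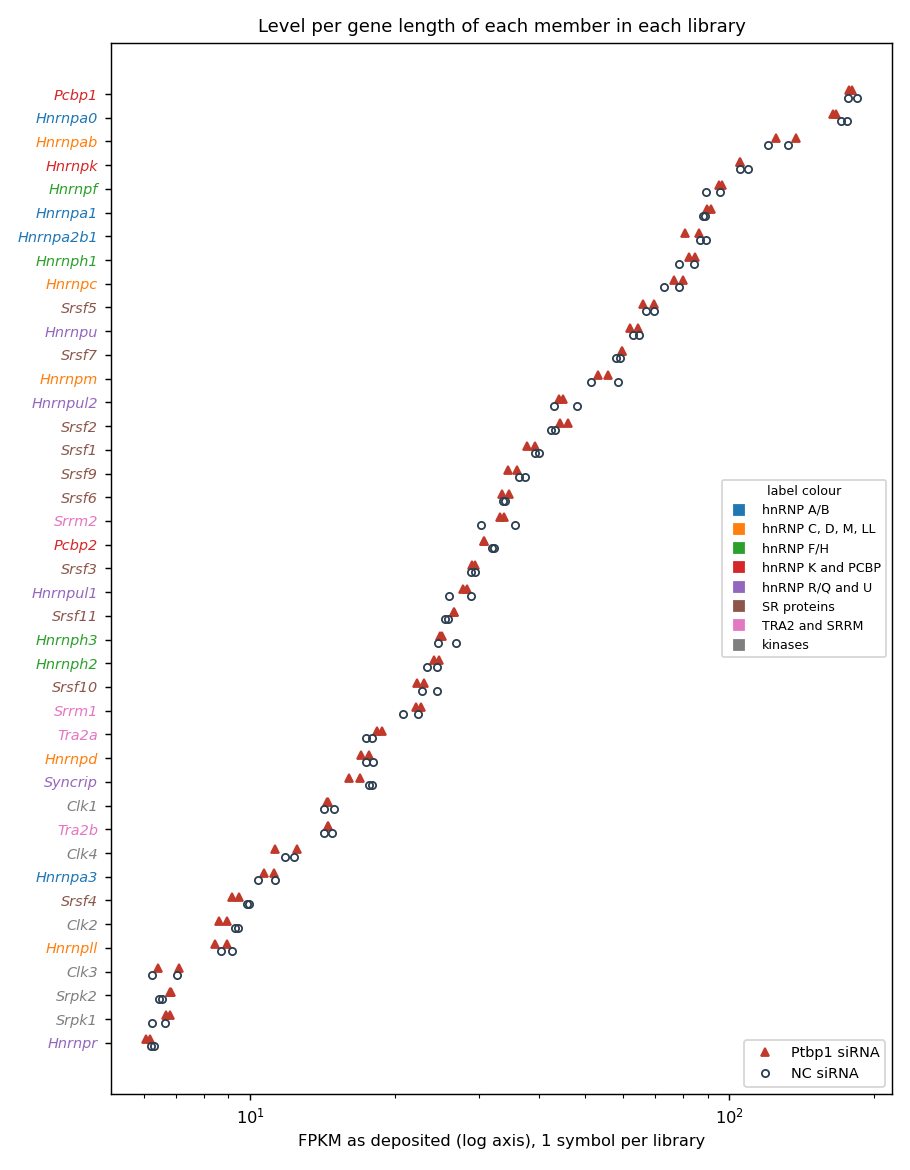
Deposited FPKM of the 41 genes on a log axis, 1 symbol per library (triangles for Ptbp1 siRNA, circles for NC siRNA), ordered by the mean over the 4 libraries and coloured by class. The symbols of a gene lie close together, while the genes run from 6.19 FPKM (Hnrnpr) to 179.8 FPKM (Pcbp1).

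The A/B class includes core hnRNP proteins, and hnRNP A1 is a classic repressor of exon inclusion. Hnrnpa1 (chr15:103240432-103246692, plus strand, GRCm38) had 284.0 and 290.4 CPM in Ptbp1 siRNA, against 279.4 and 282.3 CPM in NC siRNA. Hnrnpa2b1, whose products also bind RNAs for transport and sorting, had 534.1 and 570.1 CPM in Ptbp1 siRNA, against 590.0 and 573.5 CPM in NC siRNA. Both Ptbp1 siRNA libraries were above the NC siRNA libraries for Hnrnpa1 and below them for Hnrnpa2b1. The ratio of Hnrnpa1 to Hnrnpa2b1 counts was 0.532 and 0.509 in Ptbp1 siRNA, against 0.474 and 0.492 in NC siRNA. Hnrnpa0 had 441.8 and 449.2 CPM in Ptbp1 siRNA, against 459.8 and 472.9 CPM in NC siRNA, while the groups overlapped for Hnrnpa3. The 4 genes together stood at 1344 ± 37.2 CPM in Ptbp1 siRNA and 1388 ± 3.04 CPM in NC siRNA (SD, n = 2 each), and none of their log2 fold changes, -0.08 to 0.03, passed the test.

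The 5 members of the R/Q and U class include the member with the lowest fold change. Syncrip (chr9:88447009-88482574, minus strand), which encodes hnRNP Q, a protein of messenger RNA transport and translation, had 198.8 and 209.2 CPM in Ptbp1 siRNA, against 219.1 and 221.3 CPM in NC siRNA. The groups did not overlap, and the log2 fold change was -0.11 (SE 0.064, 95% interval -0.25 to 0.03). Its close relative Hnrnpr had 138.1 and 135.3 CPM in Ptbp1 siRNA, against 140.5 and 138.3 CPM in NC siRNA. Hnrnpu encodes the nuclear matrix and chromatin-associated scaffold attachment factor and had the most counts of the 41 genes. It stood at 723.6 and 749.2 CPM in Ptbp1 siRNA, against 754.5 and 733.2 CPM in NC siRNA, with overlapping groups. For the related Hnrnpul1 and Hnrnpul2 the NC siRNA libraries lay on both sides of the Ptbp1 siRNA libraries.

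The KH-domain proteins hnRNP K, PCBP1 and PCBP2 bind C-rich sequences. All 3 had a log2 fold change below 0, from -0.06 for Pcbp2 to -0.01 for Pcbp1, and none passed the test. Pcbp2 had 161.0 and 160.7 CPM in Ptbp1 siRNA, against 168.6 and 167.2 CPM in NC siRNA, with no overlap. Hnrnpk had 683.1 and 682.0 CPM in Ptbp1 siRNA, against 684.2 and 711.1 CPM in NC siRNA. There the groups were separated by about 1 CPM, and NC siRNA 2 was the library that stood higher. The sum of the 3 genes was 1175 and 1170 (1169.6) CPM in Ptbp1 siRNA, against 1178 and 1218 CPM in NC siRNA.

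hnRNP F and H proteins bind runs of G, and hnRNP C binds runs of U. In the F/H class 3 of 4 log2 fold changes were above 0, and the groups overlapped in all 4 genes. Hnrnpf had 295.0 and 291.2 CPM in Ptbp1 siRNA, against 273.9 and 292.4 CPM in NC siRNA. The class sum was 969 ± 5.91 CPM in Ptbp1 siRNA and 948 ± 47.2 CPM in NC siRNA, where NC siRNA 1 was the low library. Hnrnph1 and its X-linked paralog Hnrnph2 kept nearly the same ratio, at 0.219 in Ptbp1 siRNA and 0.220 in NC siRNA. In the remaining hnRNP class (Hnrnpc, Hnrnpab, Hnrnpd, Hnrnpm and Hnrnpll) the groups also overlapped in all 5 genes. Hnrnpd encodes AUF1, which promotes decay of messages with AU-rich elements, and had 126.0 and 130.6 CPM in Ptbp1 siRNA, against 133.6 and 128.9 CPM in NC siRNA. Hnrnpll, best known from splicing of Ptprc in T cells, had 99.1 and 105.2 CPM in Ptbp1 siRNA, against 101.9 and 107.6 CPM in NC siRNA.

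The 10 SR protein genes summed to 1638 ± 5.80 CPM in Ptbp1 siRNA and 1639 ± 17.5 CPM in NC siRNA (SD, n = 2 each). Of their log2 fold changes 5 were above 0 and 5 below. Srsf2 (chr11:116849901-116853094, minus strand), which encodes the nuclear speckle protein SC35, had 137.2 and 131.4 CPM in Ptbp1 siRNA, against 126.1 and 128.3 CPM in NC siRNA. Its groups did not overlap, and the value of 0.08 on the log2 scale (95% interval -0.06 to 0.22, SE 0.067) did not pass the test. Srsf4 (chr4:131873617-131901706, plus strand), the SR gene with the fewest counts, had 32.7 and 33.9 CPM in Ptbp1 siRNA, against 35.2 and 35.6 CPM in NC siRNA. The groups were apart, with a log2 fold change of -0.09 (SE 0.092) that did not pass. Srsf1, the founding SR protein gene, had 217.1 and 225.5 CPM in Ptbp1 siRNA, against 225.6 and 229.7 CPM in NC siRNA, so the groups did not overlap but their nearest libraries were almost equal. The gene of the smallest SR protein, Srsf3, had 230.2 and 233.5 CPM in Ptbp1 siRNA, against 234.1 and 228.9 CPM in NC siRNA, with overlapping groups. The other 6 SR genes ran from 57.4 CPM (Srsf9) to 279.3 CPM (Srsf5) over the libraries, with log2 fold changes from -0.07 for Srsf10, whose product represses splicing when dephosphorylated, to 0.05 for Srsf11.

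SR protein genes are known to limit their own output by splicing in exons that carry an early stop codon, which sends the transcript to nonsense-mediated decay. In GENCODE M21 (GRCm38), 28 of the 41 members (68.3%) have an annotated decay transcript, against 27.8% of 13912 tested protein-coding genes. These include 9 of 10 SR protein genes, 4 of 4 TRA2 and SRRM genes and 6 of 6 kinase genes. The background was not matched for transcript level or for the number of annotated transcripts. Transcripts with a retained intron are also annotated for more of the members (78.0%, against 57.0%). In 10 members the stop lies in an exon that no coding transcript overlaps: Srsf3, Srsf4, Srsf7, Srsf9, Srsf11, Tra2a, Tra2b, Srrm1, Srrm2 and Hnrnpll. Counts per gene add these forms to the coding ones, so the values here do not separate them. The sequences of 5 such exons, read from the exon's first base, or over the last 60 bases where that is longer, through the stop codon (in capitals), show what a count per exon would have to tell apart. They lie at chr17:29039454-29039909 (plus strand, 456 bases, Srsf3), chr4:131884276-131884482 (plus, 207 bases, Srsf4), chr17:80204622-80205081 (minus, 460 bases, Srsf7), chr6:49252803-49253108 (minus, 306 bases, Tra2a) and chr16:22258986-22259261 (minus, 276 bases, Tra2b).
Srsf3: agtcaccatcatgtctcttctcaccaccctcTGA
Srsf4: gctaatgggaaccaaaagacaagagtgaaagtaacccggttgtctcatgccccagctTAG
Srsf7: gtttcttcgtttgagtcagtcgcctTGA
Tra2a: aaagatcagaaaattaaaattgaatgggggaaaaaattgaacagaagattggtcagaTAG
Tra2b: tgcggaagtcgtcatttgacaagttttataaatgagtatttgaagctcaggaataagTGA

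The 5 genes with these exons had log2 fold changes from -0.09 (Srsf4) to 0.07 (Tra2a). Tra2a and Tra2b encode activators that bind GAA-rich enhancers. Tra2a had 128.4 and 131.5 CPM in Ptbp1 siRNA, against 125.5 and 121.5 CPM in NC siRNA, while Tra2b had 134.6 and 134.7 CPM in Ptbp1 siRNA, against 132.2 and 137.7 CPM in NC siRNA. The groups were apart for Tra2a and overlapped for Tra2b. The ratio of Tra2a to Tra2b averaged 0.965 in Ptbp1 siRNA and 0.916 in NC siRNA. Srrm1 and Srrm2 encode splicing coactivators, and SRRM2 is a scaffold of nuclear speckles. Srrm2 had 438.0 and 427.5 CPM in Ptbp1 siRNA, against 459.7 and 390.5 CPM in NC siRNA, so the Ptbp1 siRNA libraries lay between the NC siRNA libraries.

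Both SRPK genes had a log2 fold change above 0, and 3 of the 4 CLK genes had one below. Srpk1 had 84.5 and 83.1 CPM in Ptbp1 siRNA, against 82.7 and 77.4 CPM in NC siRNA, and Srpk2 had 95.5 and 95.2 CPM in Ptbp1 siRNA, against 91.3 and 90.0 CPM in NC siRNA. Both had a log2 fold change of 0.07 and groups that did not overlap, and together they summed to 179 ± 1.25 CPM in Ptbp1 siRNA and 171 ± 4.60 CPM in NC siRNA. Clk2 (chr3:89164795-89176921, plus strand) had 45.8 and 47.6 CPM in Ptbp1 siRNA, against 50.3 and 49.6 CPM in NC siRNA. Its groups did not overlap, with a log2 fold change of -0.10 (SE 0.081, 95% interval -0.27 to 0.08). For Clk1, Clk3 and Clk4 the groups overlapped, and the 4 CLK genes summed to 292 ± 11.2 CPM in Ptbp1 siRNA and 296 ± 10.4 CPM in NC siRNA. None of the 6 kinase genes passed the test.

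**Figure D3:**
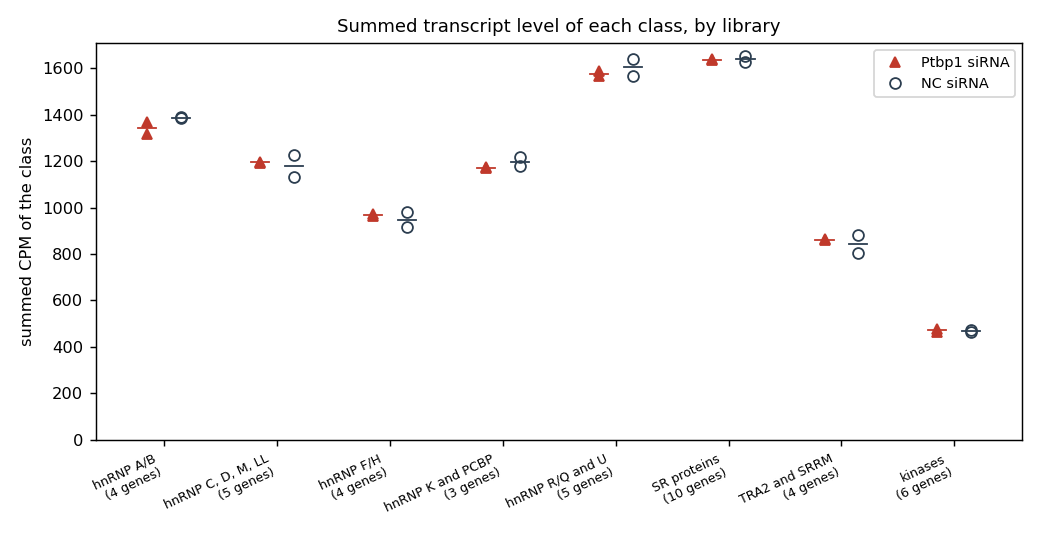
Summed CPM of the 8 classes in each library, with Ptbp1 siRNA left of NC siRNA and a line at each group's mean. The groups overlap in 6 of the 8 classes, and both Ptbp1 siRNA libraries are lower in the A/B class and in the K and PCBP class.

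Summed over the 21 hnRNP genes the level was 6259 ± 58.0 CPM in Ptbp1 siRNA and 6316 ± 89.9 CPM in NC siRNA. The SR, TRA2 and SRRM genes summed to 2500.1 ± 3.55 CPM in Ptbp1 siRNA and 2481 ± 38.3 CPM in NC siRNA. The ratio of the hnRNP sum to the SR, TRA2 and SRRM sum was 2.49 and 2.52 in Ptbp1 siRNA, against 2.49 and 2.60 in NC siRNA, with overlapping groups. All 41 genes held 0.915% and 0.923% of the counts in Ptbp1 siRNA, against 0.923% and 0.930% in NC siRNA.

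For most members, as for most tested genes, the libraries of at least 1 group differed by more than the groups did. A ratio of 2 single libraries varies more than a difference between means of 2 libraries. Such counts are therefore high even without a difference between the groups. The NC siRNA libraries were apart by more than the group difference for 26 of 41 genes (63.4%, against 63.3% of all tested genes). The Ptbp1 siRNA libraries were so for 20 (48.8%, against 61.3%), and either pair for 29 (70.7%, against 79.5%). The median absolute log2 ratio was 0.039 between the Ptbp1 siRNA libraries and 0.056 between the NC siRNA libraries, while the median absolute log2 fold change between the groups was 0.035. The largest gap was that of Srrm2, at 0.24 between the NC siRNA libraries. The other members with wide gaps included Clk3, Hnrnpm, Hnrnpul1 and Hnrnpul2.

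**Figure D4:**
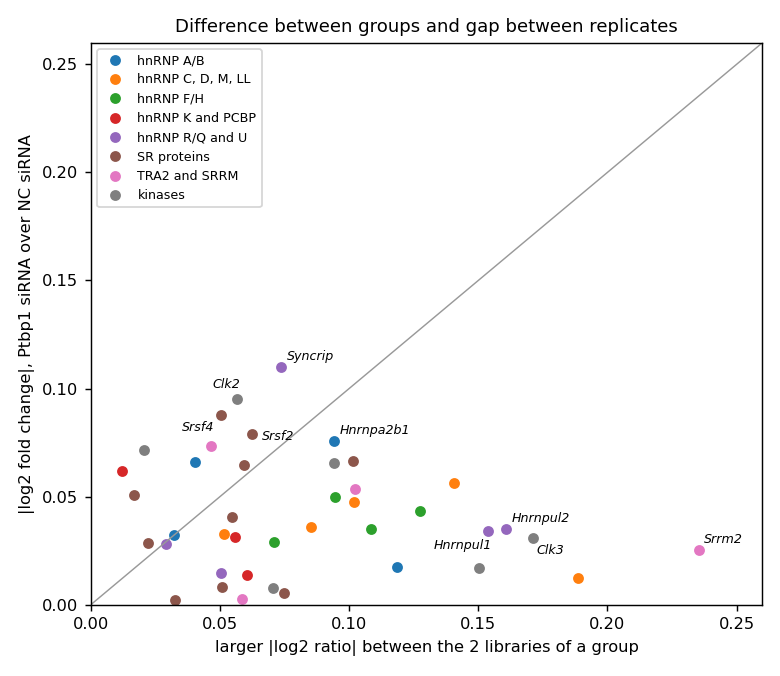
Absolute log2 fold change between the groups against the larger absolute log2 ratio between the 2 libraries of a group, 1 point per gene, coloured by class. Points under the diagonal, 29 of 41, are genes whose replicates differ by more than the groups, and Srrm2 lies farthest right.

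Reads can be shared between near-identical genes. The shares below are of the stretches of all annotated transcripts of a member, retained-intron and decay forms included. The share of the coding transcript can be larger. For Srsf3, 822 of 8221 stretches were shared, while its longest coding transcript has 2618 bases. Where the shared stretches lie was not measured. For 34 of the 41 genes under 10% of 50-base stretches occur in another gene's transcripts, and 3 members share at least 25%: Hnrnpf (36.8%), Hnrnpa1 (28.2%) and Hnrnpa3 (27.1%). The processed pseudogene Gm10052, which holds 28.1% of the Hnrnpa1 stretches, had 373 and 310 counts in Ptbp1 siRNA, against 360 and 394 in NC siRNA, or 8.37% of the Hnrnpa1 counts. Hnrnpa3 is the member most exposed to shared reads: 12 genes that each hold at least 10% of its stretches had counts, and these summed to 176% of the Hnrnpa3 counts. The largest was the protein-coding Gm6793, named after its values were seen, which holds 20.5% of the stretches and had 749 and 858 counts in Ptbp1 siRNA, against 893 and 781 in NC siRNA. The pseudogene Gm5641 holds the most stretches (26.0%) and had 62 and 67 counts in Ptbp1 siRNA, against 69 and 94 in NC siRNA. The level and the fold change of Hnrnpa3 are therefore uncertain. For Hnrnpk the processed pseudogene Gm7964, also named after its values were seen, holds 13.3% of the stretches. It had 1277 and 1426 counts in Ptbp1 siRNA, against 1556 and 1340 in NC siRNA, or 13.4% of the Hnrnpk counts. The protein-coding March2, named in the same way, holds 13.5% of the Hnrnpm stretches and had 11.7% of the Hnrnpm counts. For Hnrnpf the partner Gm6430 had only 16 and 34 counts in Ptbp1 siRNA, against 25 and 13 in NC siRNA. A stretch of 60 coding bases from Hnrnpf (chromosome 6) and its copy in Gm6430 (chromosome 1) differ in the 1 base in capitals. The part of a read that lies in this stretch and does not reach that base fits both genes.
Hnrnpf: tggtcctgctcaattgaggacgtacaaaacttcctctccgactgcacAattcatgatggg
Gm6430: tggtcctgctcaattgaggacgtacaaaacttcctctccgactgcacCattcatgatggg

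With the counts of genes that hold at least 25% of a member's stretches added to that member, Hnrnpa3 had a log2 fold change of -0.0042 in place of 0.02. With those that hold at least 10% added it had -0.0079, and 0 members passed the test either way. Overlap with another gene is the other source of uncertain counts, since no source used here gives the strand setting of the counting. In 10 members an overlapping gene had a total over 5% of the member's own total, counted over the whole of both genes. The largest such totals were those of Kmt2e over Srpk2 (114%), Edc3 over Clk3 (66.8%), Elob over Srrm2 (49.9%), Rufy2 over Hnrnph3 (48.7%) and Mfsd11 over Srsf2 (26.2%), each on the opposite strand. On the same strand lay A930004J17Rik over Srsf4 (22.3%) and March2 over Hnrnpm (11.7%), where a strand setting would not separate the genes. Map3k12 over Pcbp2 (18.5%) lay on the opposite strand. The counts that fall in the overlapping parts were not measured here, so the values of all 10 members are uncertain by an unknown amount.

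A wider list of 35 hnRNP-like, SR-related, import and kinase genes held 34 tested genes, of which 0 were called. Of these 26 had a log2 fold change above 0 (76.5%, against 50.2% of all tested genes) and 8 below, with a median of 0.03 against 0.00036 for all tested genes. The groups did not overlap in 9 of the 34 (26.5%, against 31.5% of all tested genes), and 0 had an unadjusted edgeR p under 0.05. Pnn, which encodes the nuclear speckle protein pinin, had 161.7 and 181.3 CPM in Ptbp1 siRNA, against 158.0 and 156.9 CPM in NC siRNA. Srsf12, an SR protein expressed at a low level here, had 2.00 and 2.55 CPM in Ptbp1 siRNA, against 3.18 and 3.20 CPM in NC siRNA, with a log2 fold change of -0.49 (SE 0.31). Rnps1, an activator of splicing in the exon junction complex, had 152.9 and 161.3 CPM in Ptbp1 siRNA, against 139.7 and 154.5 CPM in NC siRNA. None of the 3 passed. The members of the list with the highest levels were Son, Rbm39 and Tnpo1, with log2 fold changes of 0.06, 0.01 and -0.01.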

How the data were processed

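Total RNA of astrocytes was sequenced as mRNA libraries, per the labels' protocols. The authors deposited whole-number counts per gene and library. The deposited FPKM values scale fragments by gene length and depth. Deposited means per group are a signal (scaled counts, not used), and the authors' comparison gives a log2 fold change and a p-value per gene. Builds are GRCm38 and mm10 per the submitters' processing notes, and no source used here gives the aligner, counting tool or strand setting.

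The test was edgeR's quasi-likelihood test (edgeR 4.0.16, R 4.3.3) on the counts (TMM, filterByExpr, group only, Benjamini-Hochberg adjustment over 16368 genes, call at adjusted p under 0.05, two-sided). The fit had 2 residual and 14.0 prior degrees of freedom and a biological coefficient of variation of 6.42%. Intervals are 95% and come from the quasi-F statistic. The members and lists were chosen with earlier results of these data known. All members are named, and of the wider list the 3 genes with the smallest p and the 3 with the highest level. Alternatives were RLE scaling, library size only, DESeq2 1.42.0, limma 3.58.1 on log2(FPKM + 1) and log2(FPKM + 0.1), no filter, a mean of at least 1 CPM, a replicate block and leaving out each library. Sequences come from the GENCODE M21 transcripts (GRCm38). The edgeR step was run on simulated counts drawn with the spread fitted to these data. Such counts cannot show how the test behaves with the real spread of each gene.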

Additional observations from a re-analysis of the deposited data

How the results depend on the processing

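The count of 0 members called held under all 14 alternatives. The count of genes called over the table was 4, and it moved to 0 with limma on log2(FPKM + 1) and on log2(FPKM + 0.1), where 835 and 927 genes had an unadjusted limma p under 0.05, to 50 with no filter, to 36 with the replicate block, and to 34 to 75 when any 1 of the 4 libraries was left out. Ptbp1 kept its direction but did not pass with limma, at -0.57 (adjusted p = 0.735) and -0.58 (adjusted p = 0.570) for the pseudocounts 1 and 0.1. The members' median log2 fold change lay between -0.020 and 0.012 when 1 library was left out. Without NC siRNA 1 there was 1 member (Srrm2, 2.44% of the 41) with an unadjusted edgeR p under 0.05, against 5.60% of all genes in that fit. Srsf3 changed sign with library size only (-0.0041) and with no filter (-0.0033), and Hnrnpa3 with the counts of genes that share at least 25% (-0.0042) or at least 10% (-0.0079) of its stretches added, alternatives chosen after seeing the data. The cause was not tested. With a library left out, 20 members changed sign, with log2 fold changes of -0.043 to 0.077 for Hnrnpa3, -0.015 to 0.13 for Hnrnpab, -0.0047 to 0.10 for Hnrnpc, -0.020 to 0.090 for Hnrnph1, -0.0084 to 0.064 for Hnrnph2, -0.11 to 0.021 for Hnrnph3, -0.078 to 0.0058 for Hnrnpll, -0.11 to 0.084 for Hnrnpm, -0.039 to 0.010 for Hnrnpu, -0.040 to 0.11 for Hnrnpul1, -0.11 to 0.046 for Hnrnpul2, -0.046 to 0.016 for Pcbp1, -0.014 to 0.016 for Srsf3, -0.043 to 0.031 for Srsf5, -0.018 to 0.034 for Srsf6, -0.034 to 0.027 for Tra2b, -0.045 to 0.028 for Clk1, -0.055 to 0.12 for Clk3, -0.094 to 0.055 for Clk4 and -0.088 to 0.15 for Srrm2. A group left with 1 library is taken to vary like the other. Libraries share only a number, with a correlation of same-numbered deviations of 0.097 over all genes and 0.238 over the members. Depth and 2 libraries per group left a member's 95% interval reaching, at the median, from -0.14 to 0.14 on the log2 scale.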
